A study of Arabidopsis thaliana with 12 samples.

Results

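Carotenoid and xanthophyll synthesis was followed through 10 Arabidopsis thaliana genes, PSY, PDS, ZDS, CRTISO, LCYB, LUT2, LUT1, LUT5, ZEP and VDE, taken by locus code out of 21160 genes tested in 1 or more of the expression tables. RNA sequencing had been done on whole seedlings of sfps-2, a knockout of the splicing factor gene SFPS (AT1G30480) in Col-0, and of Col-0 wild type. All seeds were chilled for 4 days, given 3 h of white light to start germination, and the seedlings were grown in the dark for 4 days without sucrose. Each genotype was then given 3 h of continuous red light at 7 µmol m-2 s-1 or 3 h more of darkness, which gives the groups sfps-2 red light, sfps-2 dark, wild type red light and wild type dark. Each group has 3 libraries, 12 in all, and nothing in the labels tells whether they came from separate cultures, so p-values measure the spread between these libraries only. The mutant is represented by 1 allele, for which the word knockout is the submitters'.

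Carotenoids are made in plastids from geranylgeranyl diphosphate. PSY (AT5G17230) makes phytoene in the first committed step. PDS (AT4G14210) and ZDS (AT3G04870) desaturate it, and CRTISO (AT1G06820) isomerises the product to all-trans lycopene. Lycopene is the branch point, at which LCYB (AT3G10230) adds β-rings and LUT2 (AT5G57030) an ε-ring. LUT5 (AT1G31800) and LUT1 (AT3G53130) are cytochrome P450 hydroxylases that turn α-carotene into lutein. ZEP (AT5G67030) converts zeaxanthin to violaxanthin, and VDE (AT1G08550) runs that step backwards in strong light. In dark-grown seedlings the etioplast already holds some carotenoids, and light that brings on greening is known to raise their synthesis with that of chlorophyll, with PSY as a main point of control.

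The expression tables hold 1 FPKM value (fragments per kilobase of transcript, scaled to library size) for each group, which the authors made by pooling its 3 libraries, so no level has an error of its own and the read depth behind it is unknown. Each table was scaled separately, and tests stay within a table. SFPS was at 1.83 FPKM in sfps-2 and 8.04 FPKM in wild type in the dark, and at 1.93 FPKM in sfps-2 and 7.90 FPKM in wild type after red light. The mutant thus held 22.8% of the wild type level of SFPS mRNA in the dark and 24.4% after red light, so the line is not free of SFPS transcript, and whether it makes a working protein was not measured. All 3 markers of etiolated shoots (PORA, PIL1, HLS1) were detected in the dark, with a summed level of 345 FPKM in sfps-2 and 239 FPKM in wild type. Most of it came from PORA, which was called higher in sfps-2 (277 FPKM in sfps-2 and 176 FPKM in wild type). PIL1 and HLS1 were not called. Of 6 seed remnant markers, 5 were called higher in sfps-2 in the dark, with a summed level of 344 FPKM in sfps-2 and 58.4 FPKM in wild type, and 5 after red light, with 431 FPKM in sfps-2 and 93.7 FPKM in wild type. Of 7 root markers, 4 were called higher in sfps-2 after red light and 0 lower. The summed level of all 7 was 218 FPKM in sfps-2 and 274 FPKM in wild type. Most of it came from CASP1, at 162 FPKM in sfps-2 and 223 FPKM in wild type. Its q was 0.032 in the authors' deposited table, but its fold fell short of a call. In whole seedlings, fewer cells of a type and less RNA per cell cannot be told apart, and the part of seed or root tissue in the differences between genotypes was not tested. Reads were counted per library only in the splicing sheets. In 582 bins (exon or intron segments) listed with all 12 libraries, junction reads ranged from 331691, in sfps-2 red light replicate 3, to 486720.

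The introns whose retention differed are shown first, since the splicing results turn on them. The 5 introns between coding exons are printed 5′ to 3′ on the strand of the gene, from RefSeq on TAIR10.1, whose nuclear chromosomes carry the coordinates of the TAIR10 build used for the files. Capitals mark the GT and AG at the ends and the first stop codon that is in frame when the intron is read on from the coding exon before it.
LUT2 intron 5 of 10, 87 bp, chr5:23078557-23078643, plus strand: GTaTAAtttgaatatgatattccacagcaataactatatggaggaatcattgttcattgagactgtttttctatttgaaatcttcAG
LUT1 intron 8 of 11, 95 bp, chr3:19695154-19695248, plus strand: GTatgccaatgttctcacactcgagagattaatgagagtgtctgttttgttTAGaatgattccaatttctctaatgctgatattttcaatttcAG
LUT5 intron 14 of 14, 130 bp, chr1:11399194-11399323, plus strand: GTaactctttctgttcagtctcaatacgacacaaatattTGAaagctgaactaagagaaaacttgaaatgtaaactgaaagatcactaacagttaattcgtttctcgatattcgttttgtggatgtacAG
ZDS intron 11 of 13, 83 bp, chr3:1345514-1345596, plus strand: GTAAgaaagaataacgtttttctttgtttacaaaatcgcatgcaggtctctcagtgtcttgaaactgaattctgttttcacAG
CRTISO intron 10 of 12, 161 bp, chr1:2093632-2093792, minus strand: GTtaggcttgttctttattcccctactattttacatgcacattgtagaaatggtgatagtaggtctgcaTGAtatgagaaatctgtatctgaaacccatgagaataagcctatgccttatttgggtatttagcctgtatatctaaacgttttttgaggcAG
All 5 hold such a stop, which starts at intron base 4 in LUT2, 52 in LUT1, 40 in LUT5, 2 in ZDS and 70 in CRTISO. Their G and C content lay between 28.7% and 36.6%. The sixth intron, intron 1 of PSY, is 375 bp long and lies in the 5′ UTR at chr5:5662240-5662614 on the minus strand, as annotated in 1 of 4 transcripts. Its splice sites, with 3 exon bases on each side, are aagGTaggc and tttttgtattcaatttgcAGgaa.

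Red light was followed by higher mRNA of most of the pathway in both genotypes. With a call set at the authors' q under 0.05 and a fold of at least 1.5, 7 of 10 genes were called higher in sfps-2 and 9 of 10 in wild type, and 0 lower in either. Over all tested genes, 12.4% were called higher and 8.97% lower in sfps-2, and 14.9% higher and 5.85% lower in wild type. The median log2 change was 0.87 for the 10 genes and -0.01 for all genes in sfps-2, and 1.41 for the 10 genes and 0.01 for all genes in wild type. The size of change was graded over the genes. PSY, LUT5 and ZEP changed by at least 3.66-fold in both genotypes, CRTISO and LCYB stayed under 1.6-fold in both, and LUT2, VDE, LUT1, PDS and ZDS lay between these in wild type.

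At the entry step, PSY was at 157 FPKM in red light and 36.4 FPKM in the dark in sfps-2, a log2 change of 2.11 ± 0.17. In wild type it was at 188 FPKM in red light and 29.0 FPKM in the dark, a log2 change of 2.70 ± 0.13. The ± values are standard errors derived from the authors' test statistic and p. PSY had the largest change in wild type, with LUT5 within its error, and the highest level of the 10 after red light in both genotypes. The desaturases changed less. PDS had a log2 change of 0.68 ± 0.16 in sfps-2 and 0.95 ± 0.13 in wild type, and ZDS 0.76 ± 0.21 in sfps-2 and 0.84 ± 0.17 in wild type. The isomerase gene CRTISO was at 10.4 FPKM in red light and 8.35 FPKM in the dark in sfps-2, and at 13.4 FPKM in red light and 8.99 FPKM in the dark in wild type. Its q was 0.206 in sfps-2 and 2.92e-04 in wild type in the authors' deposited table, where its fold of 1.497 lies just under the 1.5 needed for a call.

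The cyclases on the 2 sides of the branch point differed in size of change. LCYB changed by 0.49 ± 0.18 on the log2 scale in sfps-2, with a q of 0.0290 in the authors' deposited table and a fold of 1.40, and by 0.64 ± 0.14 in wild type, a fold of 1.56. LUT2, which opens the route to lutein, was at 35.9 FPKM in red light and 17.4 FPKM in the dark in sfps-2, and at 44.1 FPKM in red light and 12.1 FPKM in the dark in wild type. Its log2 change was 1.05 ± 0.17 in sfps-2 and 1.87 ± 0.14 in wild type, or 3.65-fold in wild type. The ratio of these genes to each other was not tested.

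Of the lutein hydroxylases, LUT5 had the lowest dark level of the 10 genes in both genotypes. It was at 15.9 FPKM in red light and 3.28 FPKM in the dark in sfps-2, a log2 change of 2.28 ± 0.64, and at 21.5 FPKM in red light and 3.33 FPKM in the dark in wild type, a log2 change of 2.69 ± 0.27. Its standard error was the widest of the 10 in both genotypes. LUT1 had a log2 change of 0.46 ± 0.17 in sfps-2, with a q of 0.0265 in the authors' deposited table and a fold of 1.38, which is not called. In wild type its log2 change was 1.24 ± 0.14, a fold of 2.37. In the xanthophyll cycle, ZEP rose 3.66-fold in sfps-2 and 4.01-fold in wild type, with close log2 standard errors of 0.17 in sfps-2 and 0.13 in wild type. VDE rose by 0.99 ± 0.18 on the log2 scale in sfps-2, and by 1.58 ± 0.15 in wild type.

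**Figure D1:**
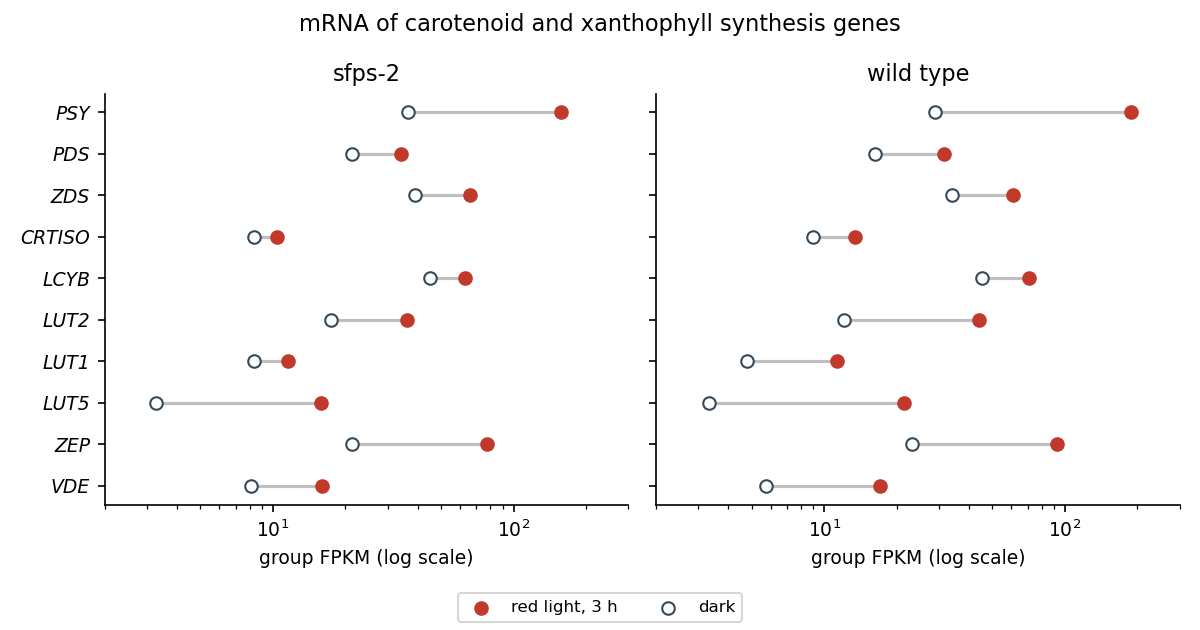
Group FPKM (log axis) of the 10 genes in pathway order, sfps-2 on the left and wild type on the right; filled points are red light and open points are dark, 1 pooled value per group. PSY ends at 157 FPKM in sfps-2 and 188 FPKM in wild type. The dark points of PSY, PDS, ZDS, LUT2, LUT1 and VDE lie further right in sfps-2, and the FPKM of the panels was scaled separately.

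The light response itself was smaller in sfps-2 for LUT2 and LUT1, the ε-cyclase and the ε-ring hydroxylase. For LUT2 the difference of the log2 changes, sfps-2 minus wild type, was -0.82 (SE 0.22, 95% interval -1.24 to -0.39), and for LUT1 it was -0.78 (SE 0.22, 95% interval -1.21 to -0.35). Their adjusted p was 0.00454 for LUT2 and 0.00955 for LUT1, from a two-sided normal test with Benjamini-Hochberg adjustment over 20420 genes. These are 2 of 10 genes with a lower response in sfps-2 and 0 with a higher one, beside 4.58% of all genes lower and 1.36% higher. Without the scale factor that makes the authors' statistic give their p, neither passed (adjusted p 0.823 for LUT2 and 1 for LUT1).

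The difference was below 0 for all 10 genes, with a median of -0.35, against a median of -0.04 and 56.9% below 0 over all genes. Related genes, described below, had medians near that of the 10 in 2 lists. These were precursor supply (-0.31) and other uses of geranylgeranyl diphosphate (-0.31). The median was -0.20 for carotenoid cleavage and abscisic acid, -0.09 for other carotenoid steps and -0.02 for regulators. A shift of this size is thus not particular to the 10 genes. PSY (-0.59, 95% interval -1.01 to -0.17, adjusted p 0.0863) and VDE (-0.59, 95% interval -1.06 to -0.13, adjusted p 0.150) did not pass the adjustment. Some markers of other tissue moved in the same test. Of 7 root markers (median 1.32), 4 passed, each with a higher light response in sfps-2. They were PRP1 (1.86), PRP3 (1.32), EXPA7 (1.64) and COBL9 (1.47), genes of low level that reached at most 5.27 FPKM (EXPA7, sfps-2 red light). MYB36 (0.25), CASP1 (-0.12) and SCR (-0.19) did not pass, so the median does not stand for all root markers. Of 6 seed remnant markers, 1 passed with a higher response and 3 with a lower one (median -0.88). The part of root and seed tissue in the differences of LUT2 and LUT1 was not tested. The other 6 genes had differences between -0.42 in LUT5 and -0.08 in ZDS, with intervals that include 0. The interval of LUT5 ran from -1.78 to 0.95 and was the widest. The 2 light comparisons share no libraries, but the 10 genes share all 12.

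**Figure D2:**
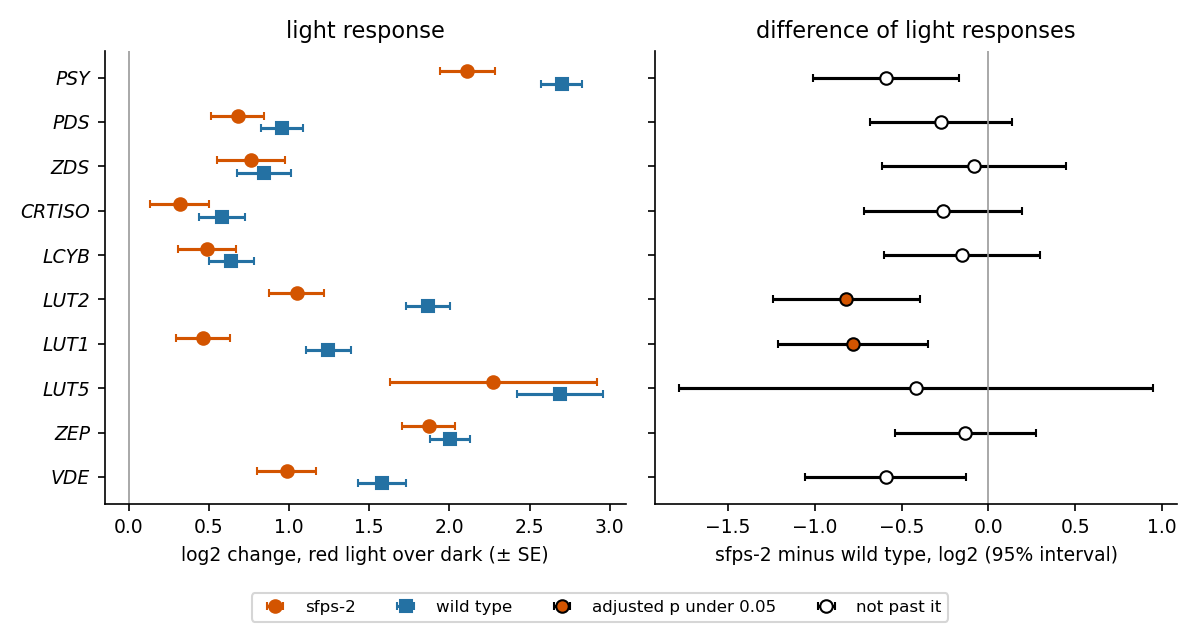
Left, log2 change in red light over dark with its SE for sfps-2 (circles) and wild type (squares); right, sfps-2 minus wild type with its 95% interval, filled where the adjusted p is under 0.05. LUT2 (-0.82) and LUT1 (-0.78) are the filled points, and all 10 points lie left of 0.

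In the dark, LUT1 was the gene of the pathway called higher in sfps-2, at 8.24 FPKM in sfps-2 and 4.87 FPKM in wild type. Its log2 change was 0.76 ± 0.16, with a q of 0.00116 in the authors' deposited table. This is 1 of 10 genes called higher and 0 lower, beside 5.22% of all genes called higher and 1.99% lower. LUT2 passed the q but not the fold, at 17.1 FPKM in sfps-2 and 12.3 FPKM in wild type (q 0.0393 in the authors' deposited table, fold 1.39). VDE passed neither the q nor the fold, at 7.97 FPKM in sfps-2 and 5.86 FPKM in wild type (q 0.0966 in the authors' deposited table, fold 1.36). The other 7 genes had log2 changes between -0.17 in ZEP and 0.33 in PDS, and the median of the 10 was 0.22, against 0.04 for all genes.

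After red light, 0 of the 10 genes were called in either direction, beside 3.28% of all genes called higher and 3.23% lower. The authors' deposited table gives unadjusted p under 0.05 for CRTISO (0.0124) and LUT2 (0.0236) only, both lower in sfps-2, and the smallest q was 0.115, for CRTISO. CRTISO was at 10.2 FPKM in sfps-2 and 13.6 FPKM in wild type, and LUT2 at 35.1 FPKM in sfps-2 and 44.4 FPKM in wild type. LUT1, which was higher in the dark, was at 11.3 FPKM in sfps-2 and 11.4 FPKM in wild type. PSY was at 154 FPKM in sfps-2 and 190 FPKM in wild type, a log2 change of -0.31 ± 0.16. The median of the 10 was -0.25, against -0.02 for all genes, with 8 of 10 below 0.

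**Figure D3:**
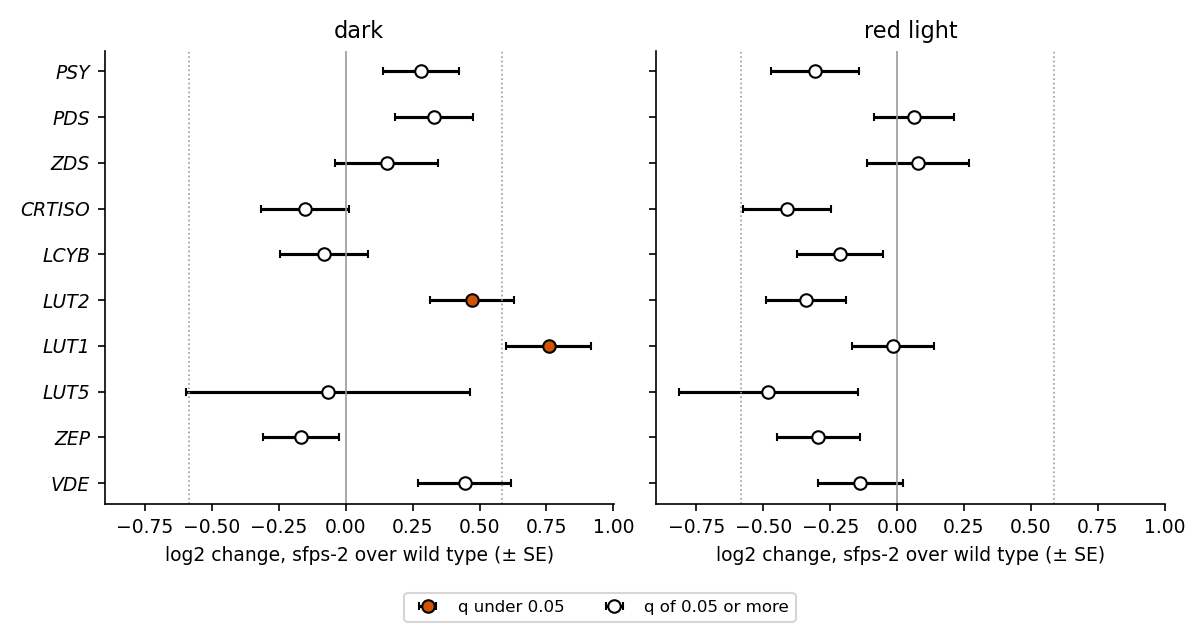
Log2 change of sfps-2 over wild type with its SE, in the dark (left) and in red light (right); filled points have q under 0.05 and dotted lines mark a fold of 1.5. In the dark LUT1 (0.76) lies past the line and LUT2 (0.47) short of it, and in red light no point is filled.

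The counts of LUT1, LUT5, LCYB and ZDS carry an uncertainty of annotation. LUT1 shares 1900 bp on the same strand with AT3G53140 in RefSeq, the tables give both the same region, and AT3G53140 is listed at 0 in all 4 tables and was not tested. For LUT5, LCYB and ZDS the authors' region runs past the RefSeq gene. It ends at 11406259 for LUT5 (gene end 11399714) and at 1347377 for ZDS (gene end 1346387), and starts at 3161757 for LCYB (gene start 3164075). Whether reads of neighbours entered their levels was not tested. LUT2 shares 74 bp with AT5G57020 on the same strand. PSY, ZDS, LCYB, LUT5 and VDE overlap a gene on the opposite strand by 108 to 464 bp, and PDS, CRTISO and ZEP overlap none. The kit marks strand, but whether the counting used it is not given in the sources used here.

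Splicing of the pathway changed in single introns by a few points, except in LUT5. The splicing sheets list bins with an FDR under 0.05 in the authors' test and a shift of at least 3 points. They hold 7 listings of the 10 genes, all retained introns, in 6 genes and 6 introns, beside 8.82% of all genes tested for expression with a listed event in any comparison. Genes were not matched for their number of introns. Between genotypes there were 0 listings in the dark and 2 in red light, in sheets that list 3.75% of tested genes in the dark and 3.92% in red light. For light there were 4 in sfps-2, whose sheet lists 1.92% of tested genes, and 1 in wild type, whose sheet lists 2.92%. Retention is the mean number of reads over an intron's 2 boundaries as a share of that mean plus the reads spliced across it, computed per library. In all 7 listings the values of the 2 groups do not overlap. The same holds for 85% of the bins listed between genotypes in red light, 80.5% of those listed for light in sfps-2 and 79.5% in wild type, as bins are listed for having changed. The two-sided exact permutation test over 3 against 3 libraries gives p = 0.1 for each listing, the smallest this design allows. In limma, fitted to the log2 odds of retention over all listed bins, the 7 had adjusted p between 0.00529 and 0.0346. The same test passed 82.1% of the bins listed between genotypes in red light, 69% of those listed for light in sfps-2 and 63.7% in wild type. Leaving out 1 library ended the call of ZDS for 4 libraries (sfps-2 red light 1, 2 and 3 and sfps-2 dark 1, adjusted p up to 0.0786), of PSY in sfps-2 for 4 (sfps-2 red light 1 and 2 and sfps-2 dark 1 and 3, up to 0.0961) and of LUT5 for 2 (sfps-2 red light 1 and 2, up to 0.0533).

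Between genotypes in red light, LUT2 intron 5 was retained in 8.54%, 7.16% and 7.08% of reads in the sfps-2 libraries and in 3.17%, 4.06% and 2.43% in the wild type libraries. All 3 sfps-2 libraries were above all wild type libraries (means 7.60 ± 0.82% and 3.22 ± 0.82%, SD, n = 3 each), with an FDR of 0.0171 in the authors' deposited table. Spliced reads of this intron were 289, 350 and 164 in sfps-2, against 321, 307 and 461 in wild type, and boundary reads 133 in sfps-2 and 70 in wild type over the 3 libraries. CRTISO intron 10 went the other way. It was retained in 4.90%, 7.88% and 5.70% of reads in sfps-2 and in 10.2%, 16.4% and 14.1% in wild type, with an FDR of 0.0243 in the authors' deposited table. Boundary reads of CRTISO intron 10 summed to 44 in sfps-2 and 138 in wild type, while spliced reads summed to 338 in sfps-2 and 444 in wild type. Spliced reads did not pass edgeR's test between genotypes in red light for LUT2 (log2 change -0.46, adjusted p 0.199) or CRTISO (-0.43, adjusted p 0.112), nor on leaving out any 1 library. LUT2 passed without replicate 2 of both genotypes (-0.83, adjusted p 0.00952). It did not pass without replicate 1 of both (-0.54, adjusted p 0.401) or replicate 3 of both (-0.057, adjusted p 0.848). CRTISO mRNA was not called between genotypes, with the values given above.

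In sfps-2, red light was followed by a lower share of retention in PSY, ZDS and LUT5 and a higher share in LUT1. LUT5 intron 14 was retained in 11.2%, 7.25% and 20.9% of reads in red light and in 71.0%, 40.3% and 37.5% in the dark, the one change of over 10 points (FDR 0.0138 in the authors' deposited table). Spliced reads were 241, 211 and 106 in red light and 10, 43 and 30 in the dark, whereas boundary reads were 61, 33 and 56 in red light and 49, 58 and 36 in the dark. The boundary reads overlap between the groups, and the spliced reads do not. The 2 boundaries were uneven in every dark library, with 14 and 35, 22 and 36, and 8 and 28 reads at the first and second. In red light they held 31 and 30, 12 and 21, and 23 and 33. The dark shares therefore rest more on the second boundary, and retention from 1 boundary alone was not tested. AT1G31810 lies on the opposite strand, with its near end 283 bp past this intron, and was at 17.4 FPKM in red light and 31.3 FPKM in the dark in sfps-2. It was called higher in sfps-2 than in wild type, at 30.9 FPKM in sfps-2 and 5.43 FPKM in wild type in the dark, and its part in the boundary reads of LUT5 was not tested.

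LUT1 intron 8 was retained in 7.94%, 8.13% and 9.22% of reads in red light and in 4.64%, 3.31% and 4.26% in the dark in sfps-2 (FDR 0.0187 in the authors' deposited table). The dark values rest on 36 boundary reads over 3 libraries, and the red light values on 115. ZDS intron 11 was retained in 2.90%, 2.40% and 3.11% of reads in red light and in 9.51%, 5.25% and 4.65% in the dark (FDR 0.0169 in the authors' deposited table). The dark libraries were spread more widely, with replicate 1 highest.

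**Figure D4:**
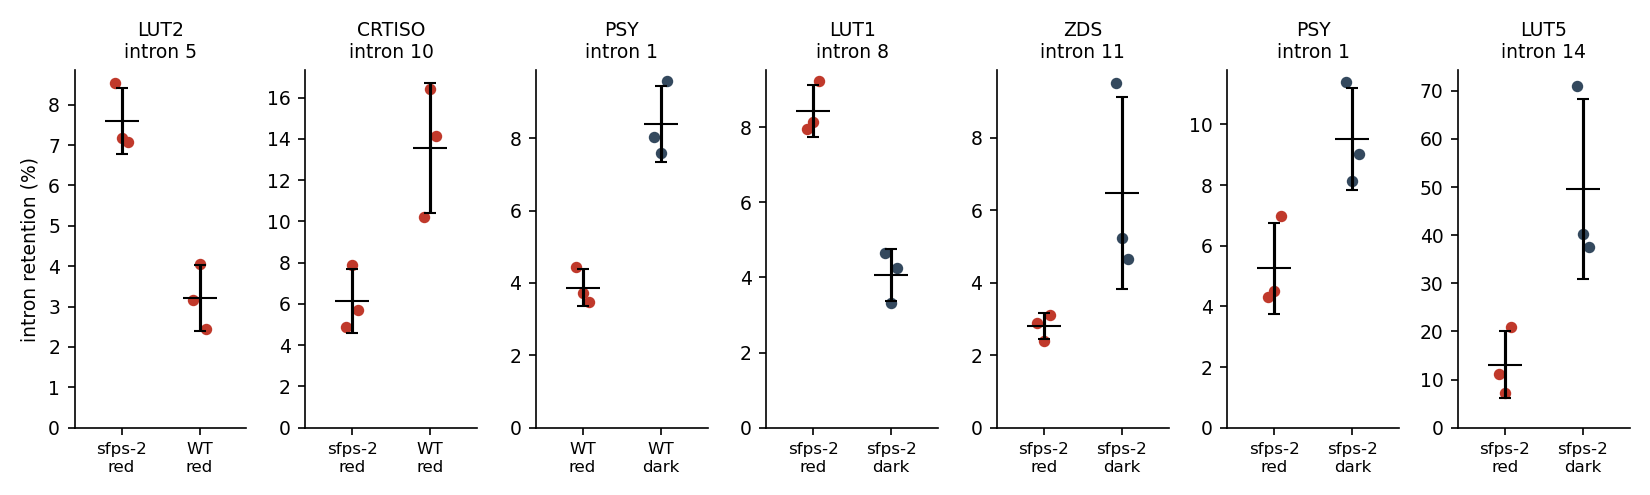
Retention in percent per library for the 7 listed events, each with its own axis from 0 and the mean ± SD of 3 libraries. The groups do not overlap in any panel, as in 79.5% to 85% of all listed bins, and LUT5 intron 14 is the one with a change of over 10 points.

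PSY intron 1, in the 5′ UTR, was listed for light in both genotypes and is the one member event with reads from all 12 libraries. It is annotated in 1 of 4 transcripts, and whether reads of the other transcripts entered its boundary counts was not tested. It was retained in 4.30%, 4.49% and 6.99% of reads in red light and in 11.4%, 8.13% and 9.02% in the dark in sfps-2 (FDR 2.25e-04 in the authors' deposited table). In wild type it was retained in 4.44%, 3.71% and 3.47% in red light and in 8.02%, 7.59% and 9.57% in the dark (FDR 8.36e-12 in the authors' deposited table). The share was lower in red light in both genotypes, and the difference of the light effects in log2 odds was 0.24 ± 0.33, with a limma adjusted p of 0.982 over 582 bins. That test passed 0 of the 582 bins in either direction, so it does not show the light effects to be alike.

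Reads spliced across this intron give a value per library for PSY transcripts spliced at these sites, as annotated in 1 of 4 transcripts. They are not a measure of all PSY mRNA. They numbered 2336, 2178 and 945 in sfps-2 red light and 303, 452 and 242 in sfps-2 dark. In wild type they numbered 2132, 2270 and 2878 in red light and 344, 408 and 241 in the dark. Every red light library was above every dark library, and sfps-2 red light replicate 3 was the lowest of the 6 red light libraries. Per 100000 junction reads in the 582 bins, sfps-2 held 438 ± 133 in red light and 82.4 ± 17.1 in the dark, and wild type 558 ± 29.1 in red light and 76.8 ± 15.2 in the dark (SD, n = 3 each). With edgeR's quasi-likelihood test over the listed junctions the log2 change in light was 2.43 in sfps-2 (adjusted p 0.00151) and 3.04 in wild type (adjusted p 1.39e-06), where 38.8% of the listed junctions passed as higher in sfps-2 and 49.8% in wild type. The difference of the 2 light changes was -0.62, with an adjusted p of 0.637, and -0.31 without sfps-2 red light replicate 3, with an adjusted p of 0.828. Both fits passed 0 of 567 junctions in either direction, so they do not show the 2 light changes to be alike. Of the other events, spliced reads rose in light in sfps-2 for LUT5 (log2 change 2.70, adjusted p 0.00350 in edgeR's test) and ZDS (0.67, adjusted p 0.0341). The ZDS value did not pass on leaving out sfps-2 red light replicate 1 (0.60, adjusted p 0.104) or 2 (0.60, 0.0986), or sfps-2 dark replicate 1 (0.57, 0.118) or 2 (0.62, 0.0909). LUT1 did not pass with all libraries (0.50, adjusted p 0.205) and did without sfps-2 red light replicate 3 (0.75, adjusted p 0.0190).

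**Figure D5:**
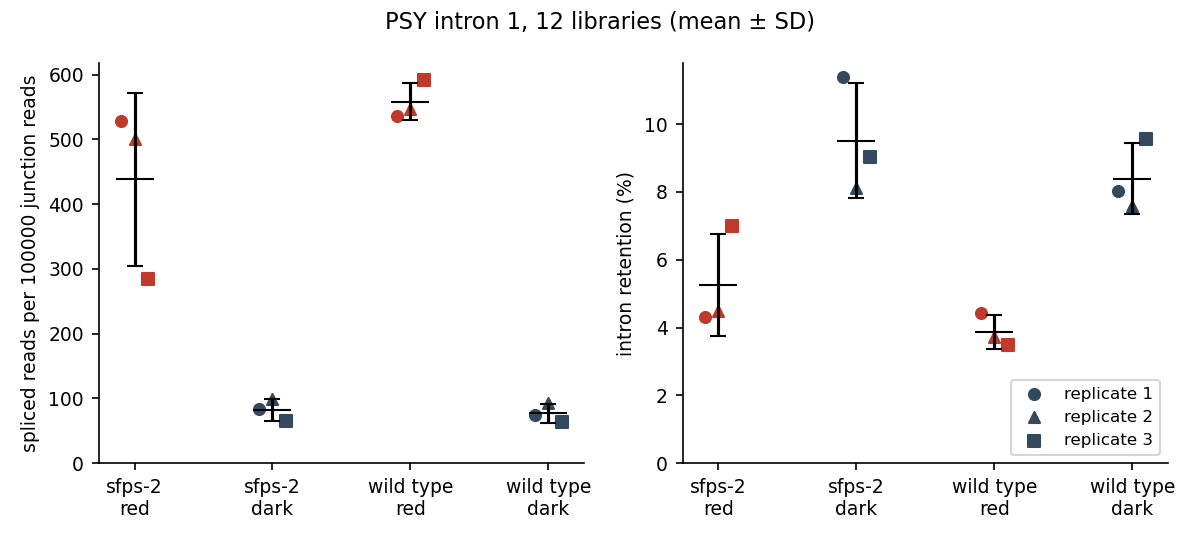
PSY intron 1 in each of the 12 libraries with the mean ± SD of each group; left, spliced reads per 100000 junction reads, and right, retention in percent, with marker shapes for replicate numbers. Red light libraries lie above dark ones on the left and below them on the right, and sfps-2 red light replicate 3 (285 per 100000) is the lowest red light library.

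Genes around the pathway were described by the same call. Of 10 genes that supply geranylgeranyl diphosphate through the plastid route, 3 were called higher in red light in sfps-2 and 6 in wild type. The largest changes were in DXR (log2 change 1.45 in sfps-2 and 1.69 in wild type), which makes methylerythritol phosphate, and in the geranylgeranyl diphosphate synthase gene GGPPS11 (0.81 in sfps-2 and 1.19 in wild type), beside MDS in sfps-2 (0.77) and DXS in wild type (1.16). Of 7 other carotenoid genes, 2 were called higher in sfps-2 and 3 in wild type. These were the β-ring hydroxylase gene BCH1 (0.89 in sfps-2 and 0.58 in wild type) and ABA4 (0.82 in sfps-2 and 0.72 in wild type), which acts in neoxanthin synthesis, and in wild type BCH2 (1.99). BCH2 just missed a call in sfps-2 (1.27, q 0.0501 in the authors' deposited table). BCH1 in wild type only just reached the fold of 1.5 needed for a call.

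Of 9 genes that take geranylgeranyl diphosphate or its products to chlorophyll, tocopherol and plastoquinone, 7 were called higher and 1 lower in red light in each genotype. VTE1, the tocopherol cyclase, had the largest rise (log2 change 2.08 in sfps-2 and 2.14 in wild type), followed by the solanesyl diphosphate synthase gene SPS2 (1.65 in sfps-2 and 1.96 in wild type). VTE3 came next in sfps-2 (1.11) and the chlorophyll synthase gene CHLG in wild type (1.73). HPPD, which makes the homogentisate head group, fell (-0.96 in sfps-2 and -0.90 in wild type). In the dark CHLG (0.66) and CHLP (0.63), the geranylgeranyl reductase gene, were called higher in sfps-2.

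Of 11 genes of carotenoid cleavage and abscisic acid synthesis, 8 were tested for light in sfps-2 and 7 in wild type, since CCD7, NCED2 and NCED6 were tested in no comparison and NCED5 in 2. The carotenoid dioxygenase gene CCD4 was called higher in light in both genotypes (1.67 in sfps-2 and 2.57 in wild type) and higher in sfps-2 in the dark (0.65). CCD8 fell in sfps-2 (-0.68) and the abscisic acid gene NCED3 in wild type (-0.64). Of 8 regulators, 4 were called higher and 1 lower in light in each genotype. HY5 (0.96 in sfps-2 and 1.43 in wild type), PIF4 (1.47 in sfps-2 and 1.42 in wild type) and PIF5 (1.38 in both) rose, and PAR1 fell (-2.36 in sfps-2 and -2.44 in wild type). After red light, 0 of the 42 tested genes of these 5 lists had a q under 0.05 between genotypes in the authors' deposited table, which comes from Cufflinks, and 4 had an unadjusted p under 0.05. The difference of light responses was called for CCD4 (-0.90, adjusted p 0.0175) and CHLP (-0.87, adjusted p 0.0212), both lower in sfps-2, and for no other gene of these lists.

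The genes closest to the median of the pathway over the 4 comparisons were AT1G73110, CPN20 (AT5G20720), a chloroplast chaperonin, and AT5G48790. Their Euclidean distances over the 4 log2 changes were 0.04, 0.06 and 0.07, among 17758 other genes with at least 1 FPKM in every group. CPN20 had log2 changes of 0.22 in the dark and -0.28 in red light for sfps-2 over wild type, and of 0.92 in sfps-2 and 1.44 in wild type for light. The pathway medians were 0.22, -0.25, 0.87 and 1.41 in the same order.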

How the data were processed

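Total RNA freed of ribosomal RNA was sequenced from stranded libraries of 12 seedling samples. Per the submitters' processing notes the authors used FastQC, TopHat2 and Cufflinks on TAIR10, with ASpli for splicing per the series' design text, and no versions are given in the sources used here. The deposited expression tables hold group FPKM, a test statistic used here as a score, and a p-value and q-value per gene, with a floor of 5e-05 on p. In the deposited splicing sheets are junction read counts of each library, the authors' retention fraction per group, a p-value and FDR, and a log2 change of the bin that was not printed here. Their summed shares were recomputed for the members' bins and matched within rounding. All 10 members had a row with a test in each table, and 0 per-sample columns were left unmapped.

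Log2 changes are log2 of the FPKM ratio with no pseudocount. Standard errors are the log2 change over the statistic, times a factor (0.578 for light in sfps-2 and 0.579 in wild type) that makes the statistic give the deposited p. For genes at the floor of p this is an extrapolation, and these include LUT2 for light in both genotypes and LUT1 for light in wild type. The difference test was run on simulated data: with 200 of 20420 genes given a log2 difference of 1, 57% were recovered, 82.5% where the standard error was under 0.3, and 5.79% of calls were false. The simulated noise was normal and used the same standard errors and nearly the same factor as the test. The simulation therefore cannot tell whether the factor or the standard errors are right. Retention odds were fitted with limma 3.58.1, with 0.5 reads added, and spliced reads with edgeR 4.0.16, library sizes being trimmed-mean sizes over the 582 bins, which the authors had selected for a splicing change. R 4.3.3, Python 3.11.15 and scipy 1.17.1 were used.

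All 10 members are named, and of the other lists the called genes of largest fold, up to 3 per direction. Members, lists and tests were chosen with earlier results of these data known. Alternatives were other thresholds, 1 FPKM added, a filter at 1 FPKM, centring on the median of all genes, a replicate block and leaving out replicates. For spliced reads of the dark libraries of both genotypes, same-numbered samples deviated together in all 3 pairs (correlations 0.305, 0.14 and 0.238). A pairing there would come from these data and not from the labels. Differently numbered samples were not compared, and retention in the same libraries did not deviate together in every pair. Whether the numbers mark pairs is thus not known, and fits with and without the replicate block are given. The spliced read test, single-library omissions and 12-library fits were chosen after seeing the data.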

Additional observations from a re-analysis of the deposited data

Results flagged for a closer look

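Red light changed LUT2 and LUT1 less in sfps-2 than in wild type, by a test of the difference itself. For LUT2 the log2 change was 1.05 in sfps-2 and 1.87 in wild type, a difference of -0.82. For LUT1 it was 0.46 in sfps-2 and 1.24 in wild type, a difference of -0.78. In both genes the level in the dark was higher in sfps-2 by the authors' q, and after red light neither was called between genotypes. These comparisons rest on the same libraries as the difference, so they restate it and are not separate support. LUT2 and LUT1 act in the branch to lutein, in which the third gene, LUT5, had a difference of -0.42 with an interval from -1.78 to 0.95. A cause was not tested.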

How the results depend on the processing

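Of 240 log2 changes of members recomputed under other thresholds, an added FPKM, a filter or centring, 228 kept their side of the call, 8 lost it and 4 gained it. Only centring can change a sign, and with it none changed. The other settings keep the sign by construction. In the dark, 2 members were higher with q alone and 0 at a fold of at least 2. At a fold of at least 2, 4 members were higher in light in sfps-2. With 1 FPKM added, the median light change in wild type was 1.26. Without the scale factor, 0 members differed in light response between genotypes. At 10 points, 1 splicing event was left.

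All 7 events passed in limma. With the replicate block 6 passed, PSY in sfps-2 being lost (adjusted p 0.0638). Same-numbered samples did not deviate together in every pair in the light comparisons or between genotypes in red light (correlations from -0.528 to 0.549 for spliced reads), nor in retention between genotypes in the dark, so the numbers were not taken to pair these samples. Leaving out a replicate number in both groups left 2 events in each case, LUT2 and CRTISO without replicate 1 or 2, and LUT2 and LUT5 without replicate 3 (CRTISO adjusted p 0.0636). LUT1 (adjusted p 0.0655 to 0.0765) and PSY in wild type (0.0554 to 0.0575) were lost in all 3 such fits. With 1 library left out rather than a pair, LUT2, CRTISO, LUT1 and PSY in wild type passed in each fit. ZDS and PSY in sfps-2 passed in 2 of 6 such fits and LUT5 in 4 of 6. Spliced reads of PSY intron 1 in the dark, sfps-2 over wild type, had a log2 change of 0.17 (edgeR adjusted p 0.569, and 0.242 with the replicate block). On leaving out 1 library this change ranged from -0.041 (without sfps-2 dark replicate 2) to 0.396 (without wild type dark replicate 2). These fits were chosen after seeing the data. Depth per library limits retention most where boundary reads are few, as in LUT1 in the dark.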

Other observations

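Neighbours that overlap members on the opposite strand had values of their own. AT5G17220, which shares 108 bp with PSY, was called higher in red light, at 2.53 FPKM in red light and 0.33 FPKM in the dark in sfps-2 and at 3.19 FPKM in red light and 0.12 FPKM in the dark in wild type. AT1G31810, which shares 108 bp with LUT5, was called higher in sfps-2 after red light too, at 17.0 FPKM in sfps-2 and 5.23 FPKM in wild type. AT3G04880 (beside ZDS), AT3G10220 (beside LCYB) and AT1G08560 (beside VDE) were called in none of the 4 comparisons.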
